A study of Mus musculus with 6 samples.

Results

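Genes of leukocyte adhesion were followed in mouse bone-marrow-derived macrophages kept with extracellular vesicles (EVs), membrane-bound particles shed by cells, of the mould Aspergillus flavus. The set was chosen by name and held 10 genes: the adhesion ligand Icam1, the hyaluronan receptor Cd44, the integrin alpha subunits Itgam, Itgal, Itgax, Itgav, Itga4 and Itga5, and the integrin beta subunits Itgb1 and Itgb2. By those names, 9 of the 10 were found among the 41972 entries of the count table, and Itgax was not. There were 3 groups of 2 libraries each: macrophages after 6 h with LD-F1 EVs at 20 µg per well, after 6 h with LD-F1_b EVs at 20 µg per well, and after 6 h with PBS. LD-F1 and LD-F1_b are called strains in the sample titles, and the sources used here do not explain the suffix. All cells came from 6-week-old male C57BL/6 mice, labelled WT, and had been grown for 6 days with medium conditioned by L-929 cells, which supply the macrophage growth factor M-CSF. The 2 replicates are biological per the design text, but which animals they came from is not given, so p-values measure the spread between these libraries.

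Integrins are membrane receptors made of 1 alpha and 1 beta chain, and the pairing sets what they bind. The leukocyte integrins share the beta-2 chain encoded by Itgb2: with Itgal it forms LFA-1, the main receptor for ICAM-1, with Itgam it forms Mac-1 or complement receptor CR3, which also binds fungal beta-glucan, and with Itgax it forms CR4. The beta-1 chain of Itgb1 pairs with Itga5 to make the classical fibronectin receptor and with Itga4 to make VLA-4, which binds VCAM-1 and fibronectin, while Itgav pairs with several beta chains to bind vitronectin and related matrix proteins. CD44 binds hyaluronan, a sugar polymer of the matrix, and is abundant on macrophages.

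The libraries held 13722215 to 15277997 counts, and 8 of the 9 named entries passed the filter on low counts. Levels are given in CPM, each gene's share of its library's counts after scaling by TMM factors, and a gene was called at an adjusted p under 0.05. "Rose", "fell", "higher" and "lower" as results are used for called genes. Where EV libraries lie wholly above or below PBS, the share of all genes that do so is not given here. No result is read from such a separation alone. A value with ± and no unit is a log2 fold change with its standard error, and where a pair stands without group names, LD-F1 over PBS precedes LD-F1_b over PBS. Replicates correlated at 0.9842 (LD-F1), 0.9885 (LD-F1_b) and 0.9910 (PBS). The LD-F1 libraries stood apart from each other along gene length: over 8627 genes, which are no replicates, replicate 2 minus replicate 1 in log2 gave a Spearman's rho with length of -0.51 (LD-F1), -0.22 (LD-F1_b) and -0.01 (PBS). Macrophage markers summed to 2355 to 2589 CPM (LD-F1), 2688 to 2735 CPM (LD-F1_b) and 2706 to 2715 CPM (PBS) over the 11 of 12 found in the table, and the largest of them, Csf1r, encodes the M-CSF receptor; Cx3cr1 was called in both comparisons with PBS and Mrc1 with LD-F1 EVs. In RNA of whole cultures, fewer cells of a type and less RNA per cell cannot be told apart.

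The 5′ ends of the genes that rose with both EV preparations are shown first, because NF-kB, the central transcription factor of inflammation, has a known binding site in the Icam1 promoter. RefSeq windows around the gene start (build GRCm38.p6, which is not the build of the count table) were at hand for 8 of the 10 genes. Capitals mark the NF-kB letters GGAAATTCC in Icam1, and the PU.1 box GAGGAA, which reads TTCCTC on the strand shown, in Itga5 and Cd44. PU.1 is the factor that sets the myeloid lineage.
Icam1 (GRCm38.p6, chr9:21015690-21015989, + strand): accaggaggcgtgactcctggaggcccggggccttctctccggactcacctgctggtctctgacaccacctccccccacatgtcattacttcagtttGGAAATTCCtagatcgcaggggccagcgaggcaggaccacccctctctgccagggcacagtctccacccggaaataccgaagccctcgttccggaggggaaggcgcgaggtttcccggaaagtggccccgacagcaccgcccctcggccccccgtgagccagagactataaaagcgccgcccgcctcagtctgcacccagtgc
Itga5 (GRCm38.p6, chr15:103366742-103367041, - strand): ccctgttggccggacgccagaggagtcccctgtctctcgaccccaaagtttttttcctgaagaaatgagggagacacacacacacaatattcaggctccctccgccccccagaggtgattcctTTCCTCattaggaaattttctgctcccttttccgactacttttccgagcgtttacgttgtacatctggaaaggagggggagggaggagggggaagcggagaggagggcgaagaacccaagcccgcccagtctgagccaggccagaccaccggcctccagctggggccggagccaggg
Cd44 (GRCm38.p6, chr2:102901616-102901915, - strand): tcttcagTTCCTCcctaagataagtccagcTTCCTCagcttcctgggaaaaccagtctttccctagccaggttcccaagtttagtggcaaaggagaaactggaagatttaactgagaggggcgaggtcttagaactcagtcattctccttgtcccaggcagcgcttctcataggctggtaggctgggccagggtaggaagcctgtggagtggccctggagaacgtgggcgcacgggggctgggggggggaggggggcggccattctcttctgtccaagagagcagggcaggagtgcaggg
Both strands were searched, and the letters were chosen after the sequences had been seen. The NF-kB letters began 153 bases before the Icam1 start and were in 1 of the 8 windows, against 0.317% of 32851 windows of the same length. The PU.1 box was in 5 of the 8 (Itgav, Cd44, Itgam, Itgb1 and Itga5), against 28.3% of all windows, beginning 127 bases before the start of Itga5 and 243 and 220 bases before that of Cd44. The AP-1 letters TGANTCA were in the Itgax window (7.81% of all windows) and the GC box GGGCGG in 7 (35.7% of all windows). Motifs overlapping each other were counted separately. A match describes the letters and is not evidence of binding.

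With LD-F1 EVs, 4 of the 8 tested genes rose over PBS and 0 fell: Itga5, Cd44, Icam1 and Itgb1. Of all 12740 genes tested, 21.2% were called in either direction, 11.4% higher and 9.87% lower. The median log2 fold change was 0.06 over the 8 and 0.01 over all genes. With LD-F1_b EVs 3 rose, Itga5, Cd44 and Icam1, and 1 fell, Itgav, against 11.0% of all genes called, 6.44% higher and 4.54% lower, with medians of 0.04 and 0.01. Between the EV groups 0 of 8 were called by edgeR and 0 by DESeq2, against 0.424% of all genes called (0.0157% higher, 0.408% lower). In edgeR 2 of the 8 had an unadjusted p under 0.05, and the share of all genes under that p is not given here. The 3 groups share 1 estimate of the spread, so a library outside a comparison also enters its test. A fit of only the groups compared called 1943 genes for LD-F1 EVs and 3098 for LD-F1_b EVs. That order is the reverse of the order with all 6 libraries, and 3 and 6 of the set were called. The number of the set called depended on which libraries were in the fit. For LD-F1 EVs it was 2 without PBS replicate 2 and 6 without LD-F1 replicate 1, while all genes called numbered 1213 and 1289 without PBS replicates 1 and 2 and 4497 without LD-F1 replicate 1, against 2707. For LD-F1_b EVs it was 1 without PBS replicate 1, 2 without PBS replicate 2 or either LD-F1_b library, and 6 without either LD-F1 library. All genes called there numbered 401 and 473 without PBS replicates 1 and 2, 401 without the first and 439 without the second LD-F1_b library, and 3113 and 3142 without LD-F1 replicates 1 and 2, against 1398. Between the EV groups all genes called numbered 1152 and 360 without LD-F1 replicates 1 and 2 and 1 and 0 without LD-F1_b replicates 1 and 2, against 54, and of the set Itga4 was called without LD-F1 replicate 1 and Itga5 without LD-F1 replicate 2. With library totals alone as scaling, the share of called genes that were higher was 33.6% for LD-F1 EVs and 41.7% for LD-F1_b EVs, in place of 53.5% and 58.7%, with a median log2 fold change over all genes of -0.10 and -0.07 in place of 0.01 in both. Under that scaling the log2 fold changes of Itga5, Cd44 and Icam1 stayed above 0.

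**Figure D1:**
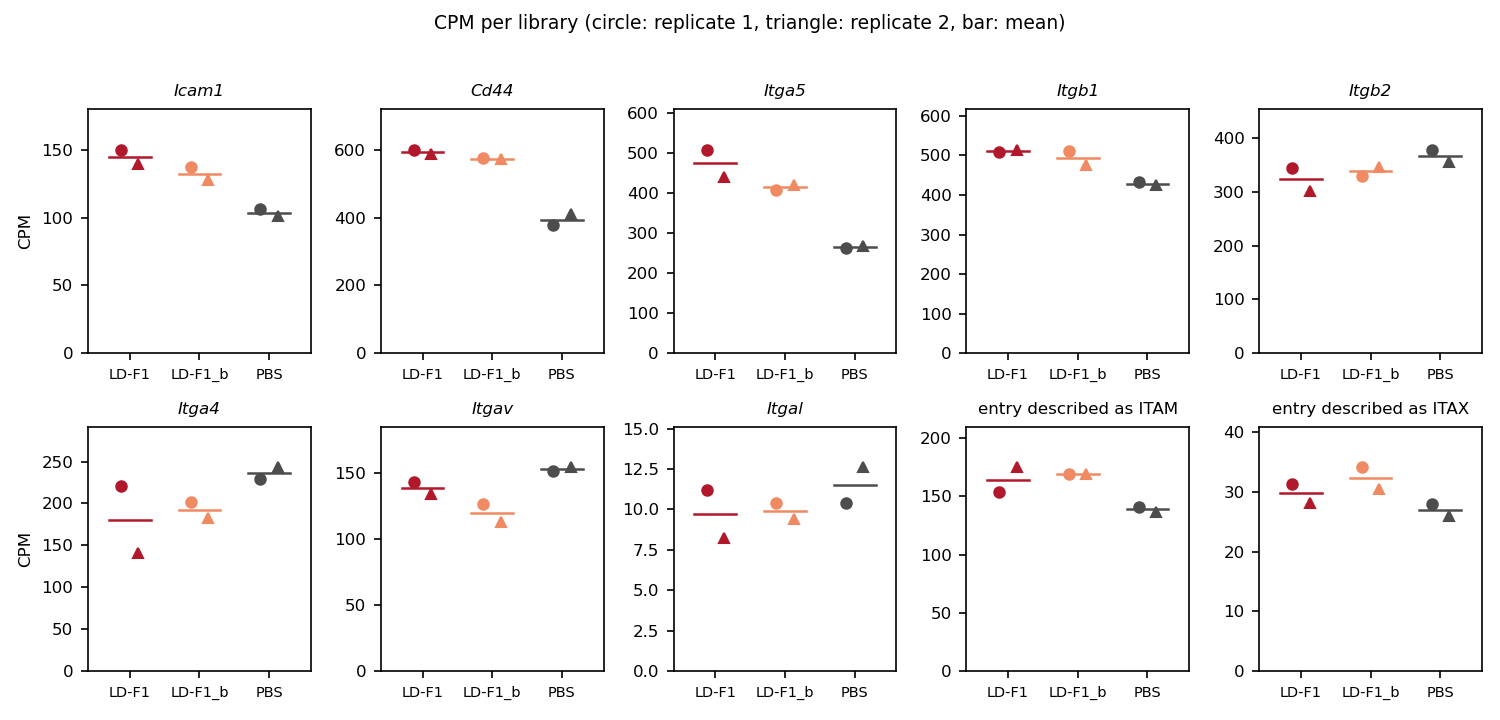
CPM of each adhesion gene per library, in LD-F1, LD-F1_b and PBS macrophages; circles are replicate 1, triangles replicate 2 and bars the mean of the 2, each axis starting at 0. Icam1, Cd44, Itga5, Itgb1 and the entries described as alpha-M and alpha-X lie above both PBS libraries in all 4 EV libraries. Itgb2, Itga4 and Itgav lie below them in all 4. Not all of these genes were called, and the share of all genes separated in this way is not given here. The LD-F1 libraries differ most in Itga4 (221 and 140.4 CPM).

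**Figure D2:**
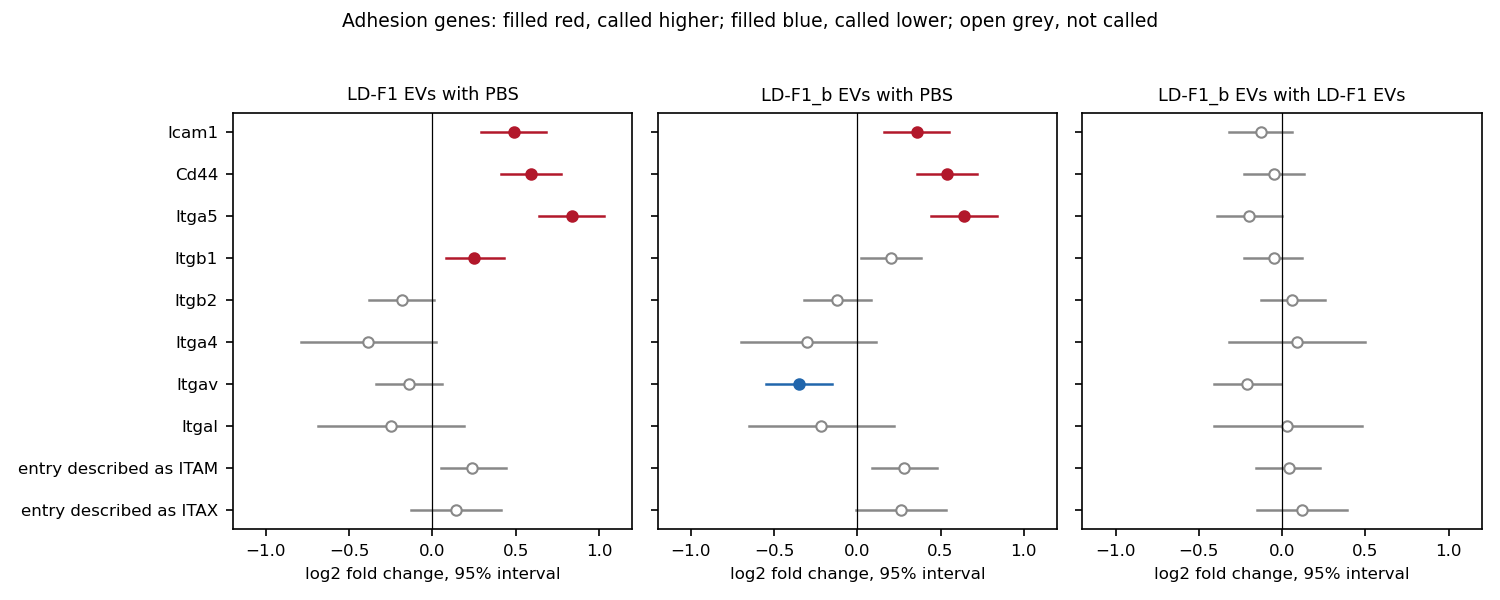
Log2 fold changes with 95% intervals of the edgeR fit for the 3 comparisons; filled red points were called higher, filled blue points lower, and open grey points were not called. Itga5 has the largest value in both comparisons with PBS (0.84 and 0.64), and the right panel, LD-F1_b EVs over LD-F1 EVs, has no filled point.

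Icam1, the immunoglobulin-family ligand of the beta-2 integrins that inflammatory signals induce on many cells, rose modestly. It had 150.2 and 139.8 CPM in LD-F1 macrophages, 137 and 128 CPM in LD-F1_b macrophages, and 106 and 101 CPM in PBS macrophages. All 4 EV libraries lay above both PBS libraries. The rise was 1.40-fold with LD-F1 EVs (log2 fold change 0.49 ± 0.09 SE, n = 2 per group, edgeR adjusted p = 0.00196) and 1.28-fold with LD-F1_b EVs (0.36 ± 0.09, adjusted p = 0.0221). The LD-F1 call was lost without PBS replicate 2 (0.45, adjusted p = 0.0578). The LD-F1_b call was lost without LD-F1_b replicate 1 (0.31, adjusted p = 0.220), LD-F1_b replicate 2 (0.40, 0.118), PBS replicate 1 (0.38, 0.194) or PBS replicate 2 (0.32, 0.292), and with library totals alone (0.28, adjusted p = 0.0608). In the positions of the table, which are those of its own C57BL/6NJ identifiers, Icam1 lies on chromosome 9 from 18924310 to 18938289 and overlaps no other entry.

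The leukocyte integrin chains that bind ICAM-1 were not called. Itgb2, the beta chain of LFA-1, Mac-1 and CR4, had 345 and 302 CPM with LD-F1 EVs, 329.5 and 347 CPM with LD-F1_b EVs, and 379 and 356 CPM with PBS. All 4 EV libraries lay below both PBS libraries, but neither comparison passed the test (-0.18 ± 0.09, adjusted p = 0.183 for LD-F1; -0.12 ± 0.09, adjusted p = 0.468 for LD-F1_b). The LD-F1 difference was called without LD-F1 replicate 1 (-0.28, adjusted p = 0.00310) and with library totals alone (-0.29, adjusted p = 0.0416). Itgal, the alpha chain of LFA-1, was the lowest of the tested genes, with 11.2 and 8.25 CPM in LD-F1 macrophages, 10.4 and 9.40 CPM in LD-F1_b macrophages, and 10.4 and 12.6 CPM in PBS macrophages. Its differences from PBS were -0.25 and -0.22 on the log2 scale, neither called, with 95% intervals from -0.69 to 0.19 and from -0.65 to 0.22. It had 911 counts over the 6 libraries.

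The alpha chains of Mac-1 and CR4 could not be read from the named entries. The entry named Itgam (chromosome 7, 137621388 to 137693833) had counts of 0 and 0 with LD-F1 EVs, 0 and 2 with LD-F1_b EVs, and 1 and 4 with PBS, 7 in all, so it was not tested and no fold is given. A second entry on the same strand, without a symbol but described in the table as mouse integrin alpha-M (MGP_C57BL6NJ_G0033564, chromosome 7, 137621345 to 137685831), overlaps it over 64444 bases and held 2056 to 2460 counts per library. The sources used here do not say how reads falling in both entries were treated, so its level may leave out reads of the gene. Directly after them an entry described as integrin alpha-X (MGP_C57BL6NJ_G0033566, chromosome 7, 137695220 to 137723576) held 396 to 490 counts. The named Itgad, a related alpha chain, overlaps that entry over 1893 bases and had 32 to 61 counts. Neither described entry belongs to the set found by name, and both were taken up after the counts of the named Itgam entry had been seen.

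**Figure D3:**
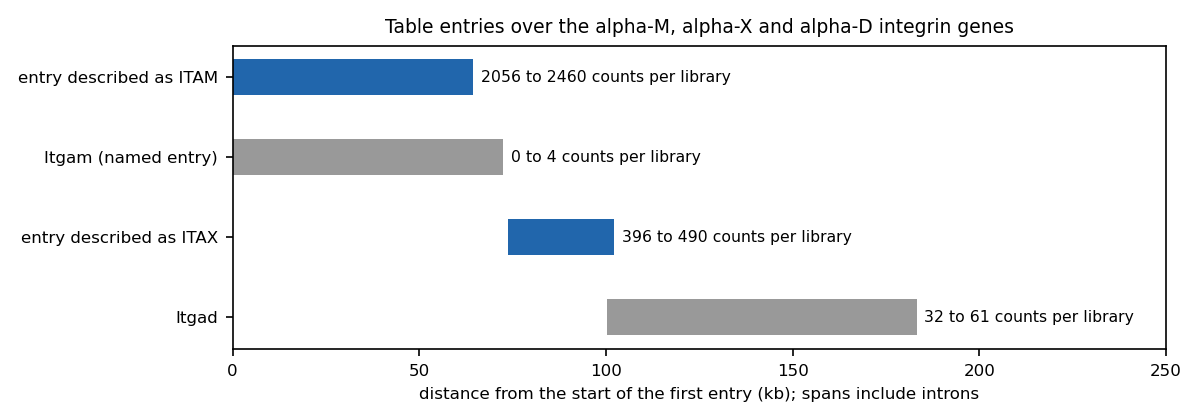
Spans of 4 entries of the count table along chromosome 7, as distance in kb from the start of the first, with their lowest and highest count per library; blue entries have no symbol and grey entries carry a gene name. The named Itgam entry, at 0 to 4 counts, lies over the described entry with 2056 to 2460.

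The entry described as alpha-M had 154 and 175 CPM with LD-F1 EVs, 169 and 169 CPM with LD-F1_b EVs, and 141 and 137 CPM with PBS. All 4 EV libraries were above both PBS libraries. Neither difference was called (0.24 ± 0.09, adjusted p = 0.0751; 0.28 ± 0.09, adjusted p = 0.0675). With offsets for gene length both were called (0.29, adjusted p = 0.0277; 0.30, adjusted p = 0.0325), also with the replicate block added (0.28, adjusted p = 0.0329; 0.30, adjusted p = 0.0371), as was the LD-F1 difference without LD-F1 replicate 1 (0.33, adjusted p = 0.000989) and the LD-F1_b difference without LD-F1 replicate 1 or 2 (0.28 each, adjusted p = 0.00138 and 0.00112) and with only the groups compared (0.28, adjusted p = 0.00173). The entry described as alpha-X, whose product is best known from dendritic cells and tissue macrophages, had 31.3 and 28.2 CPM with LD-F1 EVs, 34.1 and 30.4 CPM with LD-F1_b EVs, and 28.0 and 26.0 CPM with PBS. It was not called (0.14 ± 0.12 and 0.26 ± 0.12; adjusted p = 0.482 and 0.227); its EV libraries lay above the PBS libraries by a small margin.

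Among the beta-1 integrin chains, Itga5, the alpha chain of the fibronectin receptor, showed the largest rise of the set. It had 509.6 and 441 CPM with LD-F1 EVs, 409 and 421 CPM with LD-F1_b EVs, and 264 and 269 CPM with PBS. The groups did not overlap. It was 1.79-fold higher with LD-F1 EVs (0.84 ± 0.09, adjusted p = 4.19e-05) and 1.56-fold higher with LD-F1_b EVs (0.64 ± 0.09, adjusted p = 0.000716). Both calls held in all 15 alternatives, with log2 fold changes of 0.73 to 0.93 (adjusted p up to 0.00184) and 0.57 to 0.66 (adjusted p up to 0.0340). Between the EV groups the difference was -0.20 ± 0.09 (95% interval -0.39 to -0.00, adjusted p = 0.567), and without LD-F1 replicate 2 it was called (-0.29, adjusted p = 0.0125). Itga5 lies on chromosome 15 from 109498241 to 109522881 in the positions of the table.

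Itgb1, the common beta-1 chain, had 509 and 515 CPM with LD-F1 EVs, 511 and 476 CPM with LD-F1_b EVs, and 433 and 425 CPM with PBS. It rose 1.19-fold with LD-F1 EVs (0.25 ± 0.08, adjusted p = 0.0440), close to the threshold. With LD-F1_b EVs it was not called (0.20 ± 0.08, adjusted p = 0.146), and the difference between EV groups was -0.05 ± 0.08 (adjusted p = 0.914), so a difference between the preparations was not shown. The LD-F1 call was lost with library totals alone (0.15, adjusted p = 0.211), with the replicate number as a block (0.25, adjusted p = 0.0564), with only the groups compared (0.25, adjusted p = 0.0948), without either LD-F1_b library (0.25 each, adjusted p = 0.0987 and 0.0999) and without PBS replicates 1 and 2 (0.26 and 0.24, adjusted p = 0.271 and 0.320). The LD-F1_b difference was called with only the groups compared (0.20, adjusted p = 0.0113) and without LD-F1 replicates 1 and 2 (0.20 each, adjusted p = 0.0103 and 0.00885).

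Itga4, the alpha chain of VLA-4, was not called. It had 221 and 140.4 CPM with LD-F1 EVs, 202 and 183 CPM with LD-F1_b EVs, and 229 and 243 CPM with PBS. All 4 EV libraries were below both PBS libraries, but the LD-F1 libraries differed by more than the groups did (-0.39 ± 0.18, adjusted p = 0.171; -0.30 ± 0.18, adjusted p = 0.353). At 13978 bases Itga4 is the longest gene of the set, and the gap between the LD-F1 libraries runs along gene length as given above. With length offsets the differences were -0.22 and -0.15. Without a filter on low counts both were called (-0.39, adjusted p = 0.00150; -0.30, adjusted p = 0.0370). The LD-F1 difference was also called without LD-F1 replicate 1 (-0.75, adjusted p = 4.07e-07). The LD-F1_b difference was called without LD-F1 replicates 1 and 2 (-0.30 each, adjusted p = 0.000947 and 0.00108) and with only the groups compared (-0.30, adjusted p = 0.00167). LD-F1_b EVs differed from LD-F1 EVs without LD-F1 replicate 1 (0.45, adjusted p = 0.00126), against 0.09 ± 0.18 with all libraries and -0.20 (adjusted p = 0.169) without LD-F1 replicate 2.

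Set against each other within a library, Itga5 and Itga4 separated both EV groups from PBS but not from each other. The ratio of Itga5 to Itga4 in level per length was 7.35 and 10.0 with LD-F1 EVs, 6.47 and 7.36 with LD-F1_b EVs, and 3.67 and 3.52 with PBS. For Itga5 over Itgb1 the ratio was 0.933 and 0.799 with LD-F1 EVs, 0.745 and 0.825 with LD-F1_b EVs, and 0.568 and 0.588 with PBS. These ratios were formed after the values had been seen and were given no test. In every EV library Itga5 lay above and Itga4 below PBS, so their ratio had to separate the EV groups from PBS. Itga4 was not called, and the limit from gene length given above holds for its ratio too.

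Itgav, the alpha chain of the vitronectin receptors, was the gene that fell with LD-F1_b EVs. It had 143 and 134 CPM with LD-F1 EVs, 126 and 113 CPM with LD-F1_b EVs, and 151 and 154 CPM with PBS. Both EV groups lay below PBS, with LD-F1_b the lowest. The LD-F1_b difference was -0.35 ± 0.09 (0.785-fold, adjusted p = 0.0267) and the LD-F1 difference -0.14 ± 0.09 (adjusted p = 0.311). The direct comparison of LD-F1_b with LD-F1 gave -0.21 ± 0.09 (adjusted p = 0.528). With length offsets the LD-F1 difference was 0.01 (adjusted p = 0.942). The LD-F1_b call was lost with length offsets alone (-0.23, adjusted p = 0.0718) or with the replicate block (-0.23, adjusted p = 0.0900), without LD-F1_b replicate 1 (-0.43, adjusted p = 0.102) or replicate 2 (-0.28, adjusted p = 0.276), and without PBS replicates 1 and 2 (-0.37 and -0.34, adjusted p = 0.201 and 0.250). Gm13684, on the opposite strand over 22470 bases of Itgav, had at most 7 counts in a library.

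Cd44, the receptor for hyaluronan that also binds osteopontin, rose with both preparations. It had 601 and 587 CPM with LD-F1 EVs, 576 and 572 CPM with LD-F1_b EVs, and 377 and 410.1 CPM with PBS. It was the most counted gene of the set and its groups did not overlap. It was 1.51-fold higher with LD-F1 EVs (0.59 ± 0.08, adjusted p = 0.000286) and 1.46-fold higher with LD-F1_b EVs (0.54 ± 0.08, adjusted p = 0.00121). Between the EV groups the 95% interval of the log2 difference was -0.23 to 0.13. The LD-F1 call held in all 15 alternatives (0.49 to 0.69, adjusted p up to 0.0193), and the LD-F1_b call was lost without PBS replicate 1 (0.48, adjusted p = 0.0668). The total covers all splice forms of Cd44, which gene counts do not separate. Cd44 lies on chromosome 2 from 108266700 to 108386727.

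Per kilobase of the gene length given in the table, the levels spanned a wide range. In LD-F1 macrophages the order was Itgb1 (125 ± 0.926 CPM per kb, SD, n = 2), Itga5 (109 ± 11.1) and Itgb2 (105 ± 9.84), the last 2 overlapping, then Cd44 (87.7 ± 1.43) and Icam1 (57.1 ± 2.89), well above Itga4 and Itgav (12.9 each, overlapping) and Itgal (1.48 ± 0.314). In LD-F1_b macrophages it was Itgb1 (121 ± 6.20), Itgb2 (109 ± 4.0), Itga5 (94.8 ± 2.01), Cd44 (84.7 ± 0.418), Icam1 (52.2 ± 2.40), Itga4 (13.8 ± 0.967), Itgav (11.1 ± 0.839) and Itgal (1.51 ± 0.111), with no overlap between neighbours. In PBS macrophages Itgb2 stood first (119 ± 5.14), ahead of Itgb1 (105 ± 1.3), followed by Itga5 (60.8 ± 0.756) and Cd44 (58.1 ± 3.50), which overlapped, Icam1 (40.8 ± 1.26), Itga4 (16.9 ± 0.702), Itgav (14.2 ± 0.246) and Itgal (1.75 ± 0.232). The beta-2 chain was thus above the beta-1 chain per length in both PBS libraries and below it in all 4 EV libraries. The ratios were 0.893 and 0.774 with LD-F1 EVs, 0.849 and 0.961 with LD-F1_b EVs, and 1.15 and 1.10 with PBS. These ratios were given no test. In every EV library Itgb2 lay below and Itgb1 above PBS, so their ratio had to separate the EV groups from PBS. Against PBS, Itgb2 was called in neither comparison and Itgb1 only with LD-F1 EVs. The described entries lay at 32.7 ± 2.94 (LD-F1), 33.6 ± 0.0636 (LD-F1_b) and 27.7 ± 0.552 (PBS) for alpha-M and at 6.58 ± 0.484, 7.14 ± 0.575 and 5.97 ± 0.319 for alpha-X in the same order of groups.

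**Figure D4:**
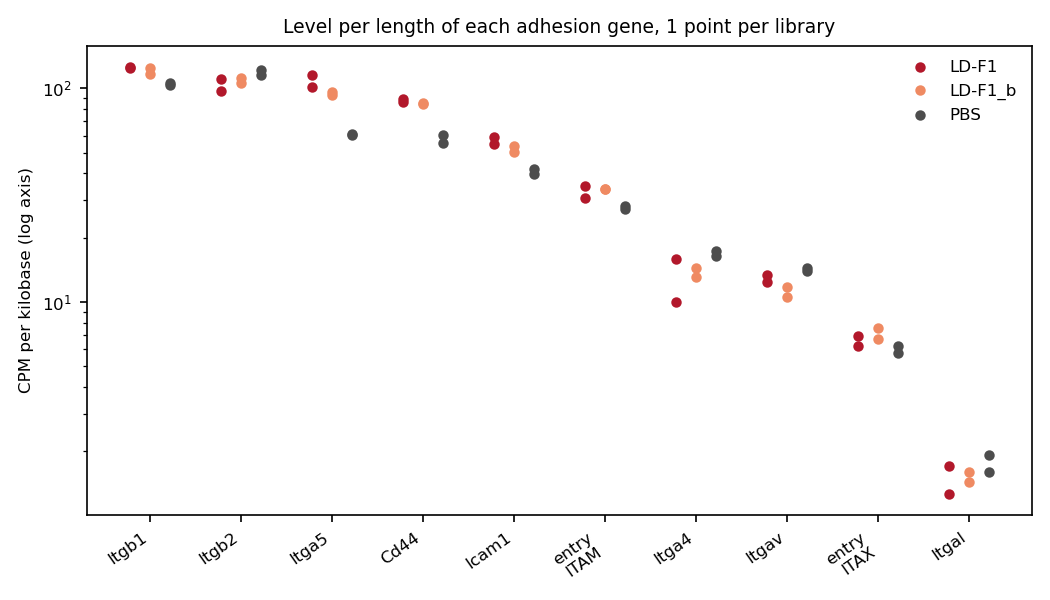
Level of each adhesion gene in CPM per kilobase on a log axis, 1 point per library, with LD-F1 left, LD-F1_b in the middle and PBS right of each gene. Itgb1, Itgb2, Itga5 and Cd44 lie highest, and Itgal lies lowest at 1.26 to 1.92 CPM per kb.

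By root mean square difference of centred log2 CPM over the 6 libraries, the genes whose pattern was most like each called gene were Clptm1l, Pmp22 and Atp2b1 for Icam1 (0.0248 to 0.0276), Scfd1, Rai14 and Gorasp2 for Cd44 (0.0263 to 0.0403), Piwil2, Ets2 and Lcp2 for Itga5 (0.0421 to 0.0483), Mtpn, Mgea5 and Senp6 for Itgb1 (0.0168 to 0.0191) and Dck, Jmjd4 and Taf5 for Itgav (0.0340 to 0.0432).

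The other integrin chains gave 8 tested genes of 19, of which 2 fell with LD-F1 EVs, 1 fell with LD-F1_b EVs and 0 rose (medians -0.34 and -0.13, against 0.01 over all genes in both comparisons). Of all genes tested, 9.87% and 4.54% fell; with 8 genes, nothing particular to the list is read from its counts. Itgb5, a beta chain that pairs with alpha-v, had 23.1 and 28.4 CPM with LD-F1 EVs, 31.4 and 32.3 CPM with LD-F1_b EVs, and 52.1 and 54.9 CPM with PBS. It fell in both comparisons (-1.05 ± 0.12, adjusted p = 8.39e-05; -0.75 ± 0.12, adjusted p = 0.00188). Itga8, an alpha chain that pairs with beta-1, had 30.0 and 24.1 CPM with LD-F1 EVs, 37.5 ± 0.757 CPM with LD-F1_b EVs (mean ± SD, n = 2), and 40.1 and 43.8 CPM with PBS. It fell with LD-F1 EVs (-0.63 ± 0.13, adjusted p = 0.00386) and was not called with LD-F1_b EVs (-0.16 ± 0.13, adjusted p = 0.478). Itgb7, which pairs with Itga4 and with Itgae, was as abundant per length as the main beta chains (119 to 145 CPM per kb over the 6 libraries) and was not called (-0.18 ± 0.08 and -0.16 ± 0.08). The platelet and osteoclast chain Itgb3 had 14 counts in all, and Itga2, Itga9 and Itgb6 had 0 in these 6 libraries. Without PBS replicate 2, 1 gene of this list was called for LD-F1 EVs; without LD-F1_b replicate 1, 0 were called for LD-F1_b EVs, and without either LD-F1 library 3 were.

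Of 20 tested genes for adhesion ligands and counter-receptors, from a list of 46, 5 rose and 1 fell with LD-F1 EVs, and 4 rose and 1 fell with LD-F1_b EVs (medians 0.29 and 0.22). Called in either direction were 6 and 5 of the 20, against 21.2% and 11.0% of all genes. Spp1 encodes osteopontin, a ligand of alpha-v integrins and CD44, and had 3248 and 3845 CPM with LD-F1 EVs, 3299 and 3372 CPM with LD-F1_b EVs, and 2287 and 2413 CPM with PBS. It rose in both comparisons (0.59 ± 0.09, adjusted p = 0.000787; 0.50 ± 0.09, adjusted p = 0.00479). Srgn, the proteoglycan serglycin that binds CD44, rose by 1.07 ± 0.10 and 0.81 ± 0.10. C3, whose cleaved form iC3b is a ligand of Mac-1 and CR4, rose by 0.90 ± 0.11 and 0.66 ± 0.11. The galectin gene Lgals9 rose by 1.59 ± 0.23 and 1.13 ± 0.23, the laminin chain gene Lamc1 by 0.39 ± 0.12 with LD-F1 EVs, and Vwf changed by -0.73 ± 0.13 and -0.45 ± 0.13. Of other ICAM genes, Icam2 was at 0.29 ± 0.21 and Icam5 at 0.48 ± 0.58 with LD-F1 EVs, neither called, and Icam4 was not tested. For LD-F1_b EVs, 1 gene of this list was called without either LD-F1_b library and 2 without either PBS library.

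Of 39 tested genes for partners inside the cell, from a list of 46, 9 rose and 6 fell with LD-F1 EVs, and 7 rose and 0 fell with LD-F1_b EVs (medians 0.05 and 0.07). Called in either direction were 15 and 7 of the 39, against 21.2% and 11.0% of all genes. Rap1b, a small GTPase that switches integrins to their binding state, had 670.2 and 791 CPM with LD-F1 EVs, 619.7 and 571 CPM with LD-F1_b EVs, and 346 and 358 CPM with PBS (1.05 ± 0.10, adjusted p = 1.21e-05; 0.76 ± 0.10, adjusted p = 0.000364). Its effector gene Rassf5 fell with LD-F1 EVs (30.5 and 30.7 CPM against 50.0 and 47.4 CPM with PBS; -0.67 ± 0.11, adjusted p = 0.000806). Ezr, which encodes ezrin, a linker of CD44 to actin, rose by 0.75 ± 0.15 and 0.54 ± 0.15, and Nf2, whose product merlin belongs to the same protein family, changed by -0.34 ± 0.11 with LD-F1 EVs. The kinase gene Src also rose with LD-F1 EVs (1.33 ± 0.30). Lims2 and Lims1, which encode adaptors bound to integrin-linked kinase, rose by 0.50 ± 0.10 and 0.43 ± 0.10 (Lims2) and by 0.42 ± 0.08 and 0.37 ± 0.08 (Lims1). Ilk, the gene of that kinase, had a mean of 2.20 CPM over the 6 libraries and was not called. In the same list Parvb (-0.19 ± 0.09 and -0.15 ± 0.09) and Parvg (-0.24 ± 0.09 and -0.05 ± 0.09) were not called either. Crkl, Cyth1 and Actn4 changed by -0.44 ± 0.11, -0.40 ± 0.13 and -0.35 ± 0.09 with LD-F1 EVs. The leftmost point of the list, Tns1, which encodes the actin linker tensin, fell by 2.63 ± 0.43 with LD-F1 EVs at a mean of 2.23 CPM over the 6 libraries. Talin, a protein that binds the beta tails directly, is encoded by Tln1, which was not called (-0.16 ± 0.11 and -0.01 ± 0.11). Fermt3, of the same list, rose by 0.36 ± 0.08 and 0.35 ± 0.08. The count of 15 for LD-F1 EVs was 6 and 5 without PBS replicates 1 and 2 and 24 without LD-F1 replicate 1. The count of 7 for LD-F1_b EVs was 2 and 1 without LD-F1_b replicates 1 and 2, 2 without either PBS library and 21 without either LD-F1 library.

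Of 19 tested genes for partners in the membrane, from a list of 22, 8 rose and 2 fell with LD-F1 EVs, and 6 rose and 0 fell with LD-F1_b EVs (medians 0.19 and 0.24). Called in either direction were 10 and 6 of the 19, against 21.2% and 11.0% of all genes. Plaur, the urokinase receptor, which associates with Mac-1 and beta-1 integrins, had 349 and 395 CPM with LD-F1 EVs, 298 and 328 CPM with LD-F1_b EVs, and 151 and 152 CPM with PBS (2.46-fold, adjusted p = 1.69e-06; 2.07-fold, adjusted p = 2.19e-05). Slc3a2, the CD98 heavy chain that binds the tails of beta-1 integrins and carries amino acid transporters, rose by 0.93 ± 0.08 and 0.61 ± 0.08. The integrin-associated protein gene Cd47 rose by 0.86 ± 0.09 and 0.62 ± 0.09, while its receptor gene Sirpa changed by -0.37 ± 0.08 with LD-F1 EVs. The tetraspanin genes Cd82 (0.90 ± 0.10 and 0.71 ± 0.10) and Cd53 (0.71 ± 0.08 and 0.61 ± 0.08) rose with both preparations. With LD-F1 EVs, Adam10, a protease that sheds CD44, changed by -0.38 ± 0.10, and Adam17, of the same list, rose by 0.32 ± 0.08. Without either PBS library 5 of this list were called for LD-F1 EVs, and without LD-F1 replicates 1 and 2 12 and 11 were called for LD-F1_b EVs. All genes called between the EV groups, also without 1 library, are counted above. In none of these 4 lists was a gene called between the EV groups by edgeR or DESeq2. In edgeR 3 of 8, 1 of 20, 3 of 39 and 3 of 19 had an unadjusted p under 0.05, in the order given. The share of all genes under that p is not given here, so nothing particular to the lists is read from it between the EV groups. Without LD-F1 replicate 1 the numbers called there were 2, 3, 8 and 6, and without LD-F1 replicate 2 they were 0, 2, 3 and 1.

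**Figure D5:**
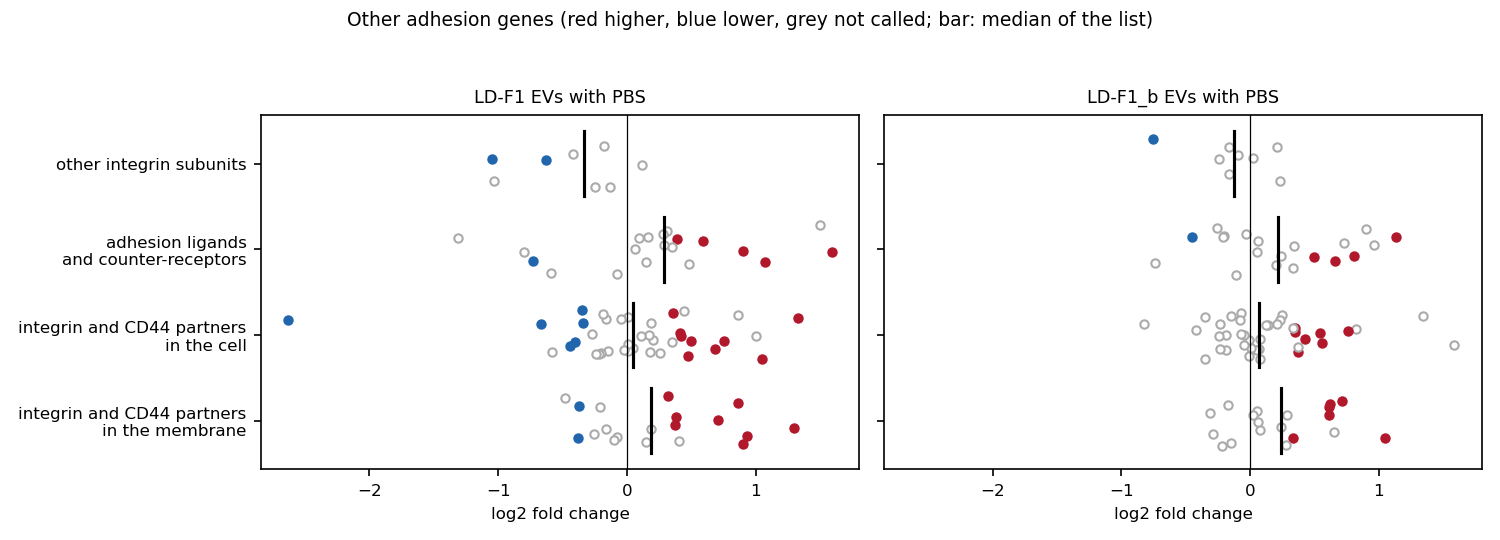
Log2 fold changes of the tested genes of the 4 lists for each EV preparation over PBS; filled red points were called higher, filled blue points lower, open grey points were not called, and black bars are list medians. Partners in the membrane have 8 filled red points for LD-F1 EVs and 6 for LD-F1_b EVs, and the other integrin chains have none.

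Markers of other cell types that carry integrins were low beside the macrophage markers. The endothelial and B cell sums were nonetheless above the CPM of Itgal in every library. Dendritic cell markers summed to 14.0 to 14.2 CPM (LD-F1), 11.1 to 13.7 CPM (LD-F1_b) and 9.27 to 10.4 CPM (PBS), with 4 of 8 tested, Xcr1 called in both comparisons and Ccr7 and Siglech at 0. Monocyte markers summed to 12.5 to 14.9, 12.0 to 12.7 and 7.96 to 9.64 CPM in that order of groups, with 3 of 5 tested, Treml4 called with LD-F1 EVs and Plac8 at 0, and platelet markers to 9.14 to 11.7, 8.29 to 8.62 and 6.05 to 7.63 CPM, with 2 of 6 tested, Ppbp called in both comparisons and Gp9 and Gp1bb at 0. Endothelial markers summed to 27.6 to 36.9, 37.4 to 38.7 and 48.3 to 55.9 CPM, with 2 of 6 tested, Emcn at 0 and 96.9% of the level from Vwf, which was called in both comparisons. Neutrophil markers, of which 1 of 10 was tested, summed to 3.27 to 3.52, 2.42 to 3.27 and 2.48 to 2.83 CPM, and S100a9, Ly6g, Elane and Ngp were at 0. T and NK cell markers (1 of 10 tested, Cd3e, Cd3d, Ncr1, Klrb1c and Nkg7 at 0) summed to 5.62 to 7.75, 4.94 to 5.80 and 3.02 to 6.00 CPM. B cell markers (1 of 6 tested, Ms4a1 at 0) summed to 42.1 to 46.7, 47.9 to 49.9 and 38.2 to 43.6 CPM, 99.1% of it from Ighm, and fibroblast markers (0 of 6 tested, Dcn and Lum at 0) reached at most 0.326 CPM. The part of these markers in the differences above was not tested.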

How the data were processed

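RNA of 6 macrophage cultures was sequenced after poly(A) selection, per the labels' protocols. The authors deposited raw read counts by gene and a gene length, both used as given. Per the submitters' processing notes, the tools were featureCounts 1.5.0-p3, HISAT2 2.0.5, fastp and StringTie 1.3.3b, with the build GRCm39; the identifiers are those of the C57BL/6NJ annotation, and the sources used here give neither the strand setting nor the handling of overlapping or multiply mapped reads. Of the per-sample columns, 0 stayed unmatched, and 0 entries were summary rows.

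Differences were tested in edgeR 4.0.16 (R 4.3.3) by quasi-likelihood: genes kept by filterByExpr, TMM factors of 0.965 to 1.04, 1 fit of all 6 libraries with a mean per group (3 residual degrees of freedom), robust estimation, and Benjamini-Hochberg adjustment over the 12740 genes tested. Standard errors were computed back from the test. The script was tested on simulated data. A floor of 3 counts in a library is 0.189 to 0.225 CPM, which covers counting error only.

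Alternatives were RLE factors, library totals alone, other filters on low counts (none, or at least 5 CPM in 2 libraries), DESeq2 1.42.0, only the groups compared, the replicate number as a block, offsets from a lowess curve on gene length, and leaving out each library. The members and lists were chosen with earlier results of these data known. The text names, per list and comparison, up to 5 called genes in each direction. They are those of largest change whose libraries did not overlap and whose mean reached 5 CPM. Tns1, Tln1, Icam2, Icam4, Icam5, Itgb7, Itgb3, Itga2, Itga9 and Itgb6 were added outside that rule, for their roles or levels, after their values were seen. So were Fermt3, Ilk, Parvb, Parvg and Adam17. Some genes that the rule names, and some markers, are not reported here.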

Additional observations from a re-analysis of the deposited data

Results flagged for a closer look

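The entry without a symbol described as integrin alpha-M held 13724 counts over the 6 libraries and the entry described as integrin alpha-X held 2584, while the named Itgam entry held 7. They were picked out because reads lie in entries that a selection by gene name leaves out, above a floor of 3 counts in every library. Their comparisons are given above.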

How the results depend on the processing

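Of the log2 fold changes of the set and the described entries with 1 library left out, 150 kept their direction and side of the threshold, 14 lost a call, 11 gained one and 5 changed sign; under the other settings 252 kept both, 6 lost a call, 10 gained one and 2 changed sign. The lost and gained calls are given above, and the values that changed sign were not called. These were Itgav with LD-F1 EVs against PBS under length offsets with or without the block (0.01 each, against -0.14), and between the EV groups Itga4, Itgal and Itgb2 without LD-F1 replicate 2, Itgal without LD-F1_b replicate 1 (-0.04) and the alpha-M entry without LD-F1 replicate 1. Over the libraries left out in turn, these ranged from -0.20 to 0.45 (Itga4, 0.09 with all libraries), -0.17 to 0.26 (Itgal, 0.03), -0.03 to 0.16 (Itgb2, 0.06) and -0.05 to 0.13 (alpha-M entry, 0.04). The cause of these changes was not tested. Only the groups compared gave 1943 genes called for LD-F1 EVs against PBS, in place of 2707. With LD-F1_b EVs against PBS it gave 3098, in place of 1398, so the order of the comparisons was reversed. Among the 3098 were 3 other integrin chains, 20 partners in the cell and 12 partners in the membrane. No filter on low counts gave 13 partners in the cell. Length offsets, with or without the block, gave 2 other integrin chains and 12 partners in the cell. Between the EV groups, all genes called were 185 with no filter, 110 in DESeq2, 113 with length offsets, 108 with the block and length offsets, and 33 with only the groups compared, and no filter gave 1 other integrin chain and 1 partner in the cell.

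Leaving out 1 library gave, for LD-F1 EVs against PBS, 2 to 6 of the set, 1213 to 4497 genes in all, 1 to 3 other integrin chains, 5 to 7 ligands, 5 to 24 partners in the cell and 5 to 14 in the membrane. For LD-F1_b EVs against PBS it gave 1 to 6, 401 to 3142, 0 to 3, 1 to 7, 1 to 21 and 5 to 12 in the same order. Between the EV groups it gave 0 to 1, 0 to 1152, 0 to 2, 0 to 3, 0 to 8 and 0 to 6. Where a group had 1 library left, it was assumed to vary like the others.

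The replicate numbers did not pair the libraries: the replicate differences correlated at 0.08, -0.02 and 0.00 between pairs of groups. With the replicate number as a block, 3 and 4 genes of the set were called for LD-F1 and LD-F1_b EVs against PBS and 0 between the EV groups, with 2706, 1357 and 52 genes called in all.

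With 13722215 counts in the shallowest library, the lowest total of a tested gene of the set was 911 counts over the 6 libraries (Itgal).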
